A study of Homo sapiens with 9 samples.

Results

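The genes described here code for the enzymes that take ceramide apart and pass its backbone through sphingosine 1-phosphate, with 1 receptor of that lipid. The list has 10 genes: the ceramidases ASAH1, ACER2 and ACER3, the sphingosine kinases SPHK1 and SPHK2, the sphingosine 1-phosphate phosphatases SGPP1 and SGPP2, the lyase SGPL1, the aldehyde dehydrogenase ALDH3A2 and the receptor S1PR2. Members were all probe sets that the platform annotation assigns to 1 of these symbols only. This gave 26 of the 54613 probe sets on the array, for 9 of the 10 genes. SPHK2 was not analysed here.

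Expression was measured on 9 Affymetrix arrays, each of total RNA from Huh7, an established human hepatocarcinoma cell line. The groups were DEGS1 siRNA (3 arrays), SPTLC123 siRNA (3 arrays, with siRNA directed at the serine palmitoyltransferase genes SPTLC1, SPTLC2 and SPTLC3) and scramble siRNA (3 arrays), which the titles call biological replicates. All groups shared the cell line, the lipid transfection reagent and a final siRNA concentration of 20 nM, so no untransfected cells are among them. The sample descriptions give 72 h from transfection; the protocol has a low-serum medium added at that time and harvest a day later. Values are normalized probe-set intensities as deposited, given here as log2 intensity (mean ± SD, n = 3). Log2 changes are given ± SE of the moderated fit, and a probe set was called at an adjusted p under 0.05 over all 54613 probe sets.

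Cells make ceramide anew from serine and palmitoyl-CoA, a route that serine palmitoyltransferase opens and the desaturase DEGS1 closes. Ceramidases cleave ceramide to sphingosine and a fatty acid, ASAH1 in the lysosome, ACER2 in the Golgi and ACER3 in the endoplasmic reticulum and Golgi. Sphingosine kinases phosphorylate sphingosine to sphingosine 1-phosphate, a signal that acts on G protein-coupled receptors such as S1PR2. SGPP1 and SGPP2 remove the phosphate again and return sphingosine to ceramide synthesis. SGPL1 instead cleaves sphingosine 1-phosphate to hexadecenal and phosphoethanolamine, the only exit from the sphingolipid pool, and ALDH3A2 oxidises the hexadecenal to the fatty acid that re-enters lipid synthesis. In the liver these lipids have been linked to insulin resistance and fat storage.

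The 2 DEGS1 probe sets stood at 4.80 to 5.19 in DEGS1 siRNA, 8.25 to 8.85 in SPTLC123 siRNA and 8.22 to 8.84 in scramble. The SPTLC1 probe set with the highest mean stood at 10.61 to 10.93 in DEGS1 siRNA, 8.53 to 8.77 in SPTLC123 siRNA and 10.83 to 11.02 in scramble. Another of the 3 SPTLC1 probe sets was called lower in DEGS1 siRNA too (-0.52, adjusted p = 0.0225). In SPTLC123 siRNA, 2 of the 5 SPTLC2 probe sets were called lower. SPTLC3 was not analysed here. All 10 hepatocyte markers measured exceeded the overall median level (4.87) in every group, against 4 of 10 markers of other liver cells (COL1A1, PECAM1, DES and ACTA2). The mean level of the hepatocyte list was lower in every array of both knockdowns, at 12.26 to 12.51 in DEGS1 siRNA and 12.26 to 12.46 in SPTLC123 siRNA, against 12.60 to 12.70 in scramble. Not every marker moved that way. In DEGS1 siRNA APOA1 (13.57 against 13.35 in scramble) and FGB (11.57 against 11.26) averaged higher. In SPTLC123 siRNA TM4SF4 did (8.82 against 8.56). The other measured markers averaged lower than scramble in each knockdown. The part of this list in the results below was not tested. In the control probe sets of actin, the 3′ minus 5′ log2 difference was 1.31 and 1.25 in DEGS1 replicates 2 and 3 and 1.15 in SPTLC123 replicate 3, against 0.40 to 0.56 in the other 6 arrays. These 3 arrays are called the arrays with weak 5′ signal below, and results that rest on them are also given without them. That leaves DEGS1 replicate 1 as the only DEGS1 array, assumed to vary like the other groups. Conversely, leaving out DEGS1 replicate 1 leaves only DEGS1 arrays with weak 5′ signal. In that setting DEGS1 siRNA and weak 5′ signal cannot be told apart in the comparison with scramble.

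The clearest changes lay at the phosphatase SGPP1 and the lyase SGPL1. SGPP1 fell to 41.1% of the scramble signal after DEGS1 siRNA and to 70.1% after SPTLC123 siRNA in its brighter probe set. Its other probe set stood at 27.1% in DEGS1 siRNA and at 74.4% in SPTLC123 siRNA, the latter not called. In bulk RNA, fewer expressing cells and less RNA per cell cannot be told apart. SGPL1 fell to 59% of the scramble signal after SPTLC123 siRNA in the brightest of its 3 probe sets, which stood at 101% in DEGS1 siRNA. The second stood at 73.3% in SPTLC123 and 124.8% in DEGS1 siRNA. The third, not called, stood at 83.3% and 75.3%. SPHK1 was lower in DEGS1 than in SPTLC123 siRNA, at 49.2% of the SPTLC123 signal, and differed from scramble past the threshold in neither. S1PR2 rose to 130% of the scramble signal after DEGS1 siRNA in its brighter probe set, a call kept in only 4 of 19 other settings. No probe set of ASAH1, ACER2, ACER3, SGPP2 or ALDH3A2 was called in any comparison.

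Among the 26 member probe sets, DEGS1 siRNA had 1 called above scramble and 2 below it, 3 in all. Of all probe sets 3.42% were called there, 1.82% higher (994) and 1.6% lower (875). With each array centred on its median the members were 0 higher and 2 lower. In SPTLC123 against scramble 3 were called, 0 higher and 3 lower, where 4.52% of all probe sets were called, 2.63% higher (1437) and 1.88% lower (1029), or 1748 and 771 with median centring. In DEGS1 against SPTLC123 5 were called, 2 higher and 3 lower, where 3.69% of all were called, 1.58% higher (862) and 2.11% lower (1155), or 648 and 1393 with median centring. The F test over the 3 groups called 4 member probe sets, where it called 6.78% of all. The 5 calls between the knockdowns stand for 19.2% of the members, but they come from only 3 genes, and probe sets of 1 gene measure the same transcripts. Of the members 18 probe sets exceeded the overall median level in at least 1 group. The other 8 were dim in all 3 groups, and none of these was called. In DEGS1 against scramble 16.7% of the 18 were called, against 6.29% of all 28604 probe sets above that level. The shares were 16.7% and 8.29% in SPTLC123 against scramble, and 27.8% and 6.72% in DEGS1 against SPTLC123. The members were chosen with earlier results of these data known, so a higher share among them is not independent evidence. The calls against scramble came from SGPP1 and S1PR2 alone in DEGS1 siRNA, and from SGPP1 and SGPL1 alone in SPTLC123 siRNA. Both comparisons against scramble use the same 3 scramble arrays.

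The groups did not overlap in 6 members in DEGS1 against scramble (21.3% of all probe sets), in 9 in SPTLC123 against scramble (22.4% of all) and in 11 in DEGS1 against SPTLC123 (19.8% of all). The median size of a log2 change was 0.14 over the members and 0.13 over all probe sets in DEGS1 against scramble. It was 0.24 over the members and 0.12 over all in SPTLC123 against scramble, and 0.19 and 0.13 in DEGS1 against SPTLC123. All these figures include dim probe sets. Above the median level the sizes were 0.25 over 18 members and 0.22 over 28604 probe sets in DEGS1 against scramble. They were 0.26 and 0.18 in SPTLC123 against scramble, and 0.32 and 0.20 between the knockdowns. In the same order, the groups did not overlap in 5, 8 and 11 of these 18 members, and in 8595, 9192 and 7842 of the 28604.

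**Figure D1:**
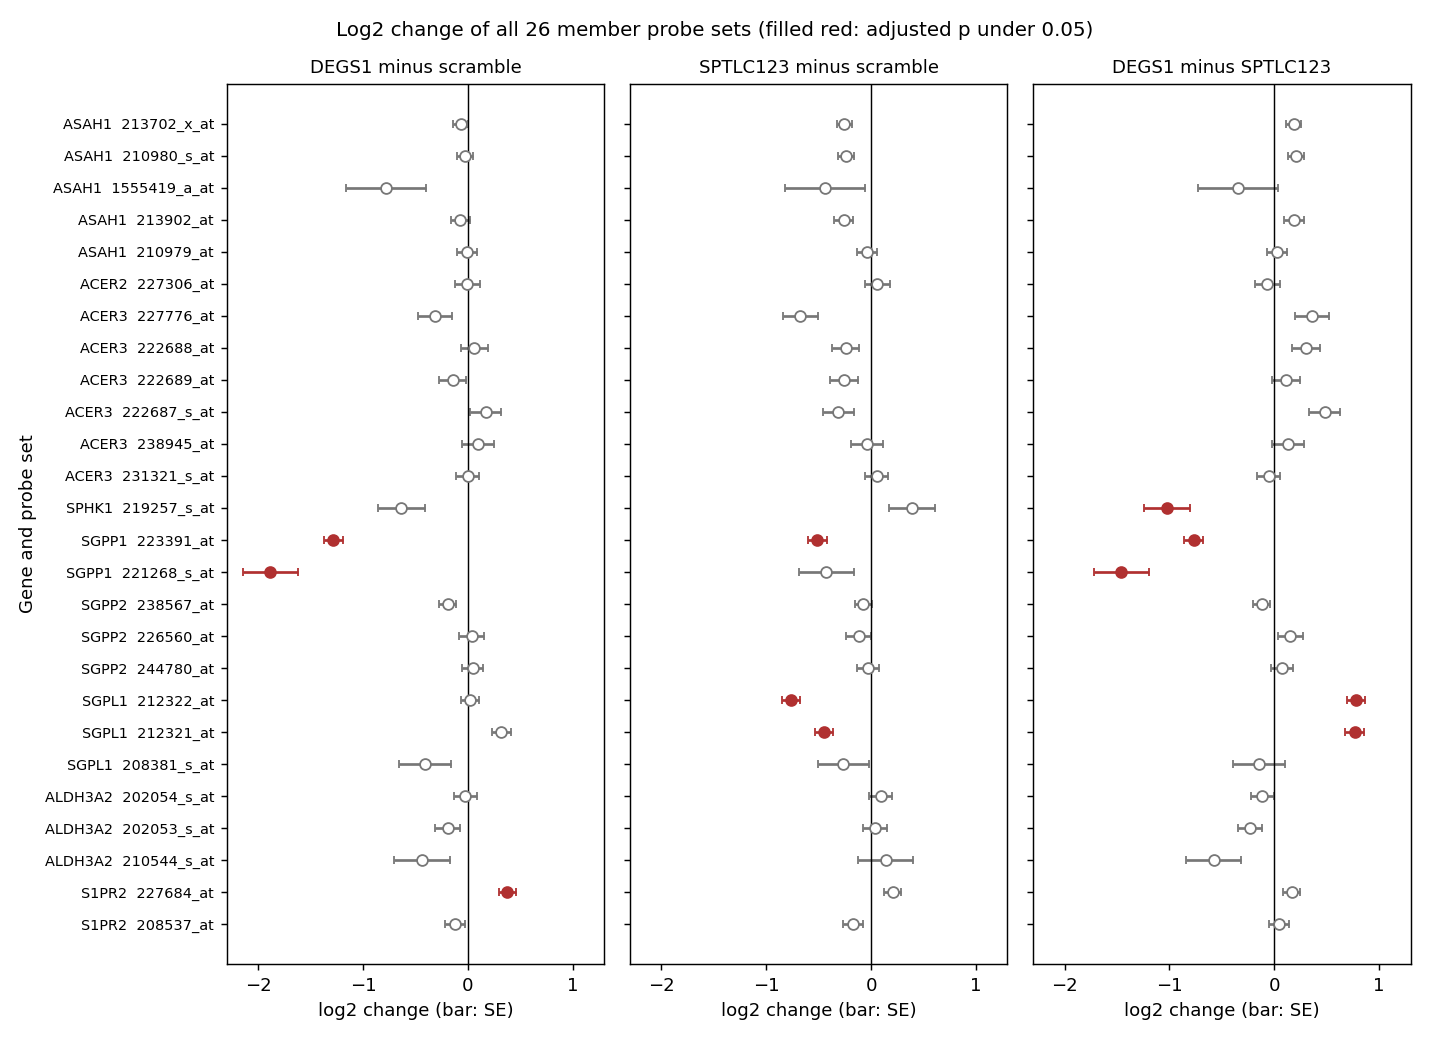
Log2 change (x axis) of each of the 26 member probe sets (y axis) in the 3 comparisons, with bars for the SE of the moderated limma fit and filled red points for an adjusted p under 0.05. Calls sit at SGPP1 in all 3 panels, at SGPL1 in SPTLC123 minus scramble (-0.76 and -0.45) and DEGS1 minus SPTLC123 (0.78 and 0.77), at SPHK1 in DEGS1 minus SPTLC123 (-1.02) and at S1PR2 in DEGS1 minus scramble (0.38).

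Of the ceramidases, ASAH1, the acid ceramidase of the lysosome, has 5 probe sets, 4 of them bright. The brightest (213702_x_at, of a class that can also bind related transcripts) read 10.67, 10.64 and 10.69 in DEGS1 siRNA, 10.51, 10.46 and 10.48 in SPTLC123 siRNA and 10.72, 10.79 and 10.69 in scramble. All SPTLC123 arrays lay below all scramble arrays, and below all DEGS1 arrays. The log2 difference was -0.25 ± 0.07 in SPTLC123 against scramble (limma adjusted p = 0.10) and -0.07 ± 0.07 in DEGS1 against scramble (adjusted p = 0.673), so neither passed. The 210980_s_at and 213902_at probe sets gave -0.24 and -0.26 in SPTLC123 against scramble, again without overlap and without a call (adjusted p = 0.145 and 0.176). In these 3 probe sets the SPTLC123 level was thus 83.4% to 84.8% of the scramble level.

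The fourth bright ASAH1 probe set, 1555419_a_at, behaved unlike the others. It read 10.19, 8.89 and 8.66 in DEGS1 siRNA, 9.84, 9.96 and 8.98 in SPTLC123 siRNA and 9.95, 10.08 and 10.07 in scramble. The low values are those of the 3 arrays with weak 5′ signal, which lay 1.41 below the other DEGS1 array and 0.92 below the other SPTLC123 arrays on the log2 scale. Its difference in DEGS1 against scramble was -0.78 ± 0.38 (adjusted p = 0.298), but -1.25 without DEGS1 replicate 1 (adjusted p = 0.0125) and 0.16 in DEGS1 replicate 1 alone. The fifth probe set, 210979_at, was dim, at 3.46 to 3.75 in all arrays.

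ACER3, an alkaline ceramidase, has 6 probe sets, of which 4 exceeded the overall median level. The brightest (227776_at) read 7.60, 7.11 and 7.26 in DEGS1 siRNA, 6.94, 6.96 and 6.99 in SPTLC123 siRNA and 7.80, 7.30 and 7.82 in scramble. The SPTLC123 arrays lay close together and below all others. The change in SPTLC123 against scramble was -0.67 ± 0.16 and missed the threshold (adjusted p = 0.0532). It passed in 7 of 19 other settings, among them without scramble replicate 2 (-0.84, adjusted p = 0.0224) and without DEGS1 replicate 1 (-0.67, adjusted p = 0.0254). With this probe set standing for the gene, it passed over 19775 genes (adjusted p = 0.0189). The other 3 probe sets above the median changed by -0.24 to -0.31, none called, and the mean of all 6 changed by -0.24 ± 0.09 (adjusted p = 0.148). In DEGS1 against scramble the 4 brighter probe sets ranged from -0.32 to 0.17. ACER2, the Golgi ceramidase, had 1 probe set, which was dim, at 3.51 to 3.96 in all arrays, with changes of -0.07 to 0.06.

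SPHK1, the kinase that makes sphingosine 1-phosphate in the cytosol, had 1 probe set (219257_s_at). It read 7.82, 7.62 and 7.06 in DEGS1 siRNA, 8.78, 8.67 and 8.13 in SPTLC123 siRNA and 8.28, 7.94 and 8.18 in scramble. The DEGS1 arrays lay below all others, and the SPTLC123 arrays overlapped scramble. The difference of -1.02 ± 0.22 between DEGS1 and SPTLC123 was called (adjusted p = 0.0398). Neither -0.63 ± 0.22 in DEGS1 against scramble (adjusted p = 0.166) nor 0.39 ± 0.22 in SPTLC123 against scramble (adjusted p = 0.457) was.

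SPHK1 was lower in the arrays with weak 5′ signal than in the other arrays of the same group, by 0.48 in DEGS1 siRNA and 0.60 in SPTLC123 siRNA. Among those 3 arrays the DEGS1 minus SPTLC123 difference was -0.78, and among the others -0.90 (adjusted p = 0.0791). Without DEGS1 replicate 1, SPHK1 was called lower in DEGS1 siRNA than in scramble (-0.79, adjusted p = 0.041). Without the 3 arrays it was called higher in SPTLC123 siRNA than in scramble, at 0.59 (adjusted p = 0.0447). The call between the knockdowns ended without any 1 of SPTLC123 replicates 1 (-0.90) and 2 (-0.95), DEGS1 replicates 2 (-1.08) and 3 (-0.80) or any scramble array (adjusted p from 0.0564 to 0.163), and held without DEGS1 replicate 1 or SPTLC123 replicate 3.

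For SGPL1 and SPHK1 the promoter windows are shown because probe sets of these genes were called in opposite directions between the knockdowns. The SPHK1 call held in 9 of 19 other settings, and the third SGPL1 probe set was not called (-0.15). SGPP1, also called between the knockdowns, had no window. Each window runs 5′ to 3′ from 250 bases before to 50 after a RefSeq transcript start (GRCh38.p14, plus strand); 8 of the 10 genes had an entry. The SGPL1 window is chr10:70815698-70815997, and the SPHK1 window, at the first of 3 listed starts, is chr17:76382954-76383253. Capitals mark matches to 5 motifs, picked after the windows had been seen and searched on both strands.
SGPL1: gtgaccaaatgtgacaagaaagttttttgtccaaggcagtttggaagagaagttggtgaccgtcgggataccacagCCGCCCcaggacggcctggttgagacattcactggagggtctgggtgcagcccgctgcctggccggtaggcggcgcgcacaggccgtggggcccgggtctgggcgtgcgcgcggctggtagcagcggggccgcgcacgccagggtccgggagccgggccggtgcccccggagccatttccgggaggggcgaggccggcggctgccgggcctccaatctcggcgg
SPHK1: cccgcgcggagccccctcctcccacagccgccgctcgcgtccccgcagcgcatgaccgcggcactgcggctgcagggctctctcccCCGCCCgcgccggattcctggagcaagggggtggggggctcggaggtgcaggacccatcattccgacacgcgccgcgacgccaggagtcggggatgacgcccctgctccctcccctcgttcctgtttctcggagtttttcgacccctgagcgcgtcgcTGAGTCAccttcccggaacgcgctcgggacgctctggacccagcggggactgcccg
The motifs were the GC box (GGGCGG, in 45% of 35116 promoter windows of the same length), the AP-1 element (TGANTCA, 7.71%), the E-box (CACGTG, 7.26%), the cAMP response element (TGACGTCA, 1.85%) and the FOXO element (GTAAACA, 3.42%). The SGPL1 window holds 1 GC box. The SPHK1 window holds 1 GC box and 1 AP-1 element; of the other SPHK1 starts, the second has 2 GC boxes and 0 AP-1 elements, and the third 0 GC boxes and 1 AP-1 element. The matches do not overlap each other, and they are letters in a window, not measured binding.

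SGPP1, a phosphatase of the endoplasmic reticulum that turns sphingosine 1-phosphate back into sphingosine, lies at chr14:63684216-63728065 (GRCh38.p14). Its brighter probe set (223391_at) read 5.17, 5.12 and 5.08 in DEGS1 siRNA, 5.92, 5.95 and 5.81 in SPTLC123 siRNA and 6.27, 6.54 and 6.40 in scramble. The 3 groups did not overlap, with DEGS1 lowest and scramble highest. The log2 changes were -1.28 ± 0.09 in DEGS1 against scramble (adjusted p = 0.000529) and -0.51 ± 0.09 in SPTLC123 against scramble (adjusted p = 0.0154). The difference between the knockdowns, -0.77 ± 0.09, was itself called (adjusted p = 0.00288).

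The arrays with weak 5′ signal differed little from the rest of their group in 223391_at, by -0.07 in DEGS1 siRNA and -0.12 in SPTLC123 siRNA. DEGS1 replicate 1 alone lay 1.24 below the scramble mean. The call in DEGS1 against scramble held in all 19 other settings run (-1.35 to -1.21). The smaller change in SPTLC123 siRNA was lost without SPTLC123 replicate 1 or 3 or scramble replicate 2 or 3 (-0.53, -0.47, -0.44 and -0.51, adjusted p from 0.0531 to 0.0586). Without the 3 arrays with weak 5′ signal it was -0.47 (adjusted p = 0.0648), and the difference between the knockdowns, still -0.77, was not called either (adjusted p = 0.0957).

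The second SGPP1 probe set (221268_s_at) read 4.56, 3.67 and 3.72 in DEGS1 siRNA, 5.90, 5.36 and 5.05 in SPTLC123 siRNA and 5.91, 5.78 and 5.90 in scramble. Again the DEGS1 arrays lay below all others, while SPTLC123 replicate 1 lay within the scramble range. It changed by -1.88 ± 0.26 in DEGS1 against scramble (adjusted p = 0.00772), by -0.43 ± 0.26 in SPTLC123 against scramble (adjusted p = 0.50) and by -1.46 ± 0.26 between the knockdowns (adjusted p = 0.0187). Here the arrays with weak 5′ signal were lower than the rest of their group by 0.86 in DEGS1 and 0.58 in SPTLC123 siRNA, and the change in DEGS1 replicate 1 alone was -1.31 (adjusted p = 0.0538). The DEGS1 mean, 3.98, is itself in the dim range, where changes are measured less well. The call between the knockdowns ended without SPTLC123 replicate 1 or 2 or DEGS1 replicate 2 or 3 (-1.23, -1.50, -1.30 and -1.33, adjusted p from 0.0669 to 0.0853), and without the 3 arrays with weak 5′ signal (-1.08, adjusted p = 0.0956). The mean of both SGPP1 probe sets was called in DEGS1 against scramble (-1.58 ± 0.15, limma adjusted p = 0.000474 over 19775 genes). It was also called between the knockdowns (-1.11 ± 0.15, adjusted p = 0.00203), but not in SPTLC123 against scramble (-0.47 ± 0.15, adjusted p = 0.0838).

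SGPP2, the second phosphatase, gave no such reading. Its 3 probe sets were dim, at 2.84 to 4.13 in all arrays, and their changes ranged from -0.19 to 0.15 over the 3 comparisons, none called.

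**Figure D2:**
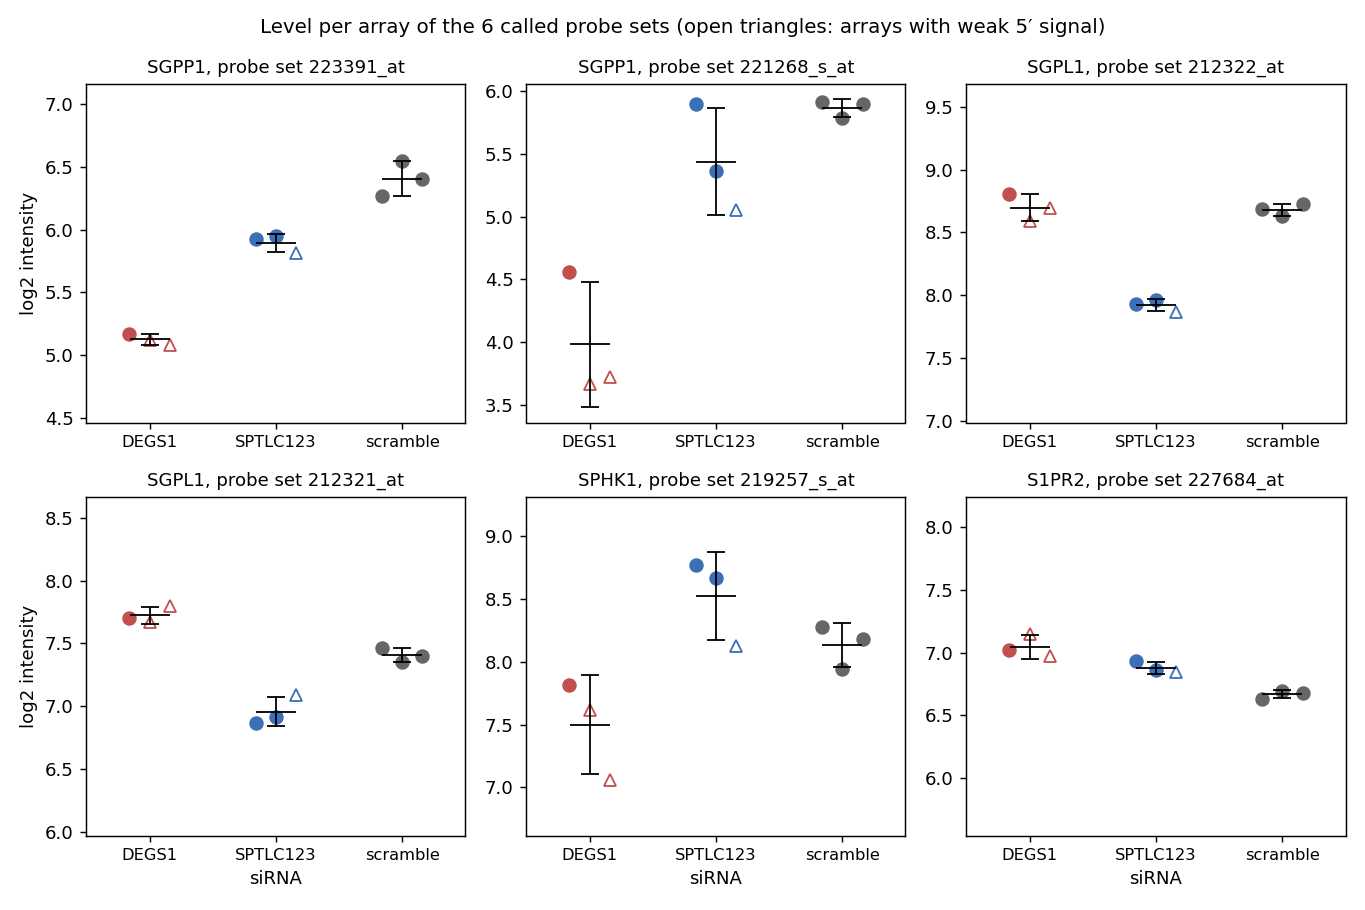
Log2 intensity (y axis) of the 6 called member probe sets in each array by siRNA group (x axis), with the mean and SD of 3 arrays as a bar; every panel spans the same height, and open triangles are the 3 arrays with weak 5′ signal. SGPP1 223391_at averages 5.12 in DEGS1, 5.89 in SPTLC123 and 6.41 in scramble, SGPL1 is low in SPTLC123 alone (7.92 and 6.96), and SPHK1 is lowest in DEGS1 (7.50).

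SGPL1, the lyase that ends sphingolipid breakdown, lies at chr10:70815948-70881184 (GRCh38.p14). Its brightest probe set (212322_at) read 8.81, 8.59 and 8.70 in DEGS1 siRNA, 7.93, 7.96 and 7.87 in SPTLC123 siRNA and 8.68, 8.63 and 8.72 in scramble. The SPTLC123 arrays lay below all others, and DEGS1 and scramble overlapped. The change was -0.76 ± 0.08 in SPTLC123 against scramble (adjusted p = 0.00161), 0.02 ± 0.08 in DEGS1 against scramble (adjusted p = 0.941) and 0.78 ± 0.08 in DEGS1 against SPTLC123 (adjusted p = 0.00181). The first and the last of these calls held in all 19 other settings run.

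The second SGPL1 probe set (212321_at) read 7.70, 7.67 and 7.80 in DEGS1 siRNA, 6.86, 6.92 and 7.09 in SPTLC123 siRNA and 7.46, 7.35 and 7.40 in scramble. No 2 groups overlapped, with DEGS1 highest and SPTLC123 lowest. The changes were -0.45 ± 0.09 in SPTLC123 against scramble (adjusted p = 0.0234), 0.77 ± 0.09 in DEGS1 against SPTLC123 (adjusted p = 0.0024, called in all 19 other settings) and 0.32 ± 0.09 in DEGS1 against scramble, which missed the threshold (adjusted p = 0.0916). Leaving out SPTLC123 replicate 1 or 2 or any scramble array ended the SPTLC123 call of this probe set (-0.47 to -0.40, adjusted p from 0.0572 to 0.0939).

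Both bright SGPL1 probe sets gave the difference between the knockdowns within the arrays with weak 5′ signal (0.78 and 0.65) and within the other arrays (0.86 and 0.81). The third probe set (208381_s_at) lay around the overall median level, at 4.20 to 5.37, was lower in the arrays with weak 5′ signal by 0.66 in DEGS1 and 0.43 in SPTLC123 siRNA, and showed no called change (DEGS1 minus SPTLC123 -0.15 ± 0.25, adjusted p = 0.800). The mean of the 3 probe sets was called in SPTLC123 against scramble (-0.49 ± 0.11, adjusted p = 0.0211 over 19775 genes) and in DEGS1 against SPTLC123 (0.47 ± 0.11, adjusted p = 0.0286).

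ALDH3A2, the fatty aldehyde dehydrogenase that follows the lyase and is mutated in Sjögren-Larsson syndrome, stayed within a narrow range in 2 of its 3 probe sets. The brightest (202054_s_at) read 9.77, 9.41 and 9.76 in DEGS1 siRNA, 9.83, 9.78 and 9.66 in SPTLC123 siRNA and 9.65, 9.66 and 9.69 in scramble. The groups overlapped, and the differences were -0.02 ± 0.11 in DEGS1 against scramble (adjusted p = 0.941) and 0.09 ± 0.11 in SPTLC123 against scramble (adjusted p = 0.784). The 202053_s_at probe set gave -0.19 and 0.04 in the same comparisons, neither called. Both were lower in the arrays with weak 5′ signal than in the rest of their group, 202053_s_at by 0.32 in DEGS1 and 0.18 in SPTLC123 siRNA, and 202054_s_at by 0.18 and 0.15.

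The third ALDH3A2 probe set (210544_s_at) read 8.44, 7.38 and 7.50 in DEGS1 siRNA, 8.53, 8.53 and 7.99 in SPTLC123 siRNA and 8.14, 8.14 and 8.35 in scramble. Its 3 lowest values are again the arrays with weak 5′ signal, lower than the rest of their group by 1.00 in DEGS1 and 0.53 in SPTLC123 siRNA. It was not called over all arrays (-0.44 ± 0.26 in DEGS1 against scramble, adjusted p = 0.398). Without DEGS1 replicate 1 it was called lower in DEGS1 siRNA than in scramble (-0.77, adjusted p = 0.0167) and than in SPTLC123 siRNA (-0.91, adjusted p = 0.0115). DEGS1 replicate 1 alone lay 0.22 above the scramble mean.

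**Figure D3:**
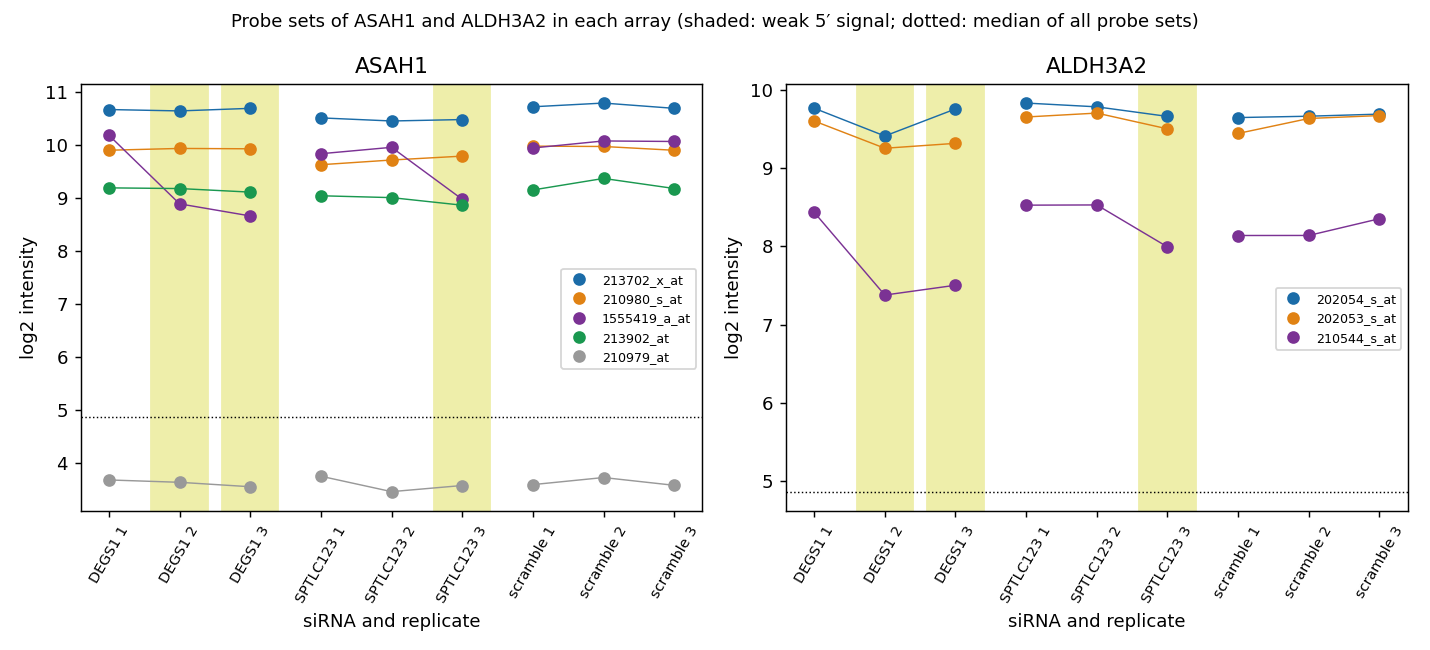
Log2 intensity (y axis) of each ASAH1 and ALDH3A2 probe set in the 9 arrays (x axis: siRNA and replicate), joined within a group; the shaded columns are the 3 arrays with weak 5′ signal and the dotted line is the median of all probe sets (4.87). ASAH1 1555419_a_at (8.66 to 8.98) and ALDH3A2 210544_s_at (7.38 to 7.99) are low in the shaded arrays, and ALDH3A2 202053_s_at is lower there by less (0.32 in DEGS1 and 0.18 in SPTLC123 siRNA).

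S1PR2, a sphingosine 1-phosphate receptor of hepatocytes that also answers to conjugated bile acids, had 1 probe set above the median (227684_at). It read 7.02, 7.15 and 6.97 in DEGS1 siRNA, 6.93, 6.86 and 6.84 in SPTLC123 siRNA and 6.63, 6.69 and 6.68 in scramble. All arrays of both knockdowns lay above all scramble arrays. The change was 0.38 ± 0.08 in DEGS1 against scramble (adjusted p = 0.0403) and 0.21 ± 0.08 in SPTLC123 against scramble (adjusted p = 0.228), and the knockdowns did not differ past the threshold (0.17 ± 0.08, adjusted p = 0.320). The call was a narrow one. It was kept in 4 of 19 other settings, and leaving out any array but DEGS1 replicate 1 ended it (0.32 to 0.42, adjusted p from 0.0503 to 0.154). Without the 3 arrays with weak 5′ signal the change was 0.35 (adjusted p = 0.376). The other probe set (208537_at) was dim, at 3.63 to 4.05, with changes of -0.13 in DEGS1 and -0.17 in SPTLC123 against scramble, neither called.

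The wider pathway was read from a list of 31 further genes, of which 27 had a probe set with 1 symbol; the brightest probe set stood for each gene. In DEGS1 against scramble none was called higher and 3 lower, in SPTLC123 against scramble none higher and 2 lower, and in DEGS1 against SPTLC123 2 higher and 2 lower. Read against all probe sets, 1.6% were called lower in the first comparison, 1.88% lower in the second, and 1.58% higher and 2.11% lower in the third. These shares include dim probe sets and so are not like for like. With 1 probe set per gene, adjusted over 19775 genes, 996 of the 19775 genes were called lower in the first comparison and 915 in the second. In the third, 732 were called higher and 981 lower. None of the 6 other ceramidases and helpers measured (ACER1, ASAH2B, NAAA, ADIPOR1, ADIPOR2 and PSAP) and none of the 3 sphingosine kinase partners (CIB1, SPHKAP and PHB2) was called.

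Among phosphatases of the phospholipid phosphatase family, which act on sphingosine 1-phosphate from outside the cell among other lipids, PLPP3 read 9.48, 9.69 and 9.69 in DEGS1 siRNA, 8.41, 8.37 and 8.74 in SPTLC123 siRNA and 9.43, 8.77 and 9.16 in scramble. The knockdowns lay on opposite sides of the scramble mean. Their difference of 1.11 ± 0.17 was called (adjusted p = 0.00936), the changes against scramble were not (0.50 ± 0.17 and adjusted p = 0.157 in DEGS1, -0.61 ± 0.17 and adjusted p = 0.0874 in SPTLC123). Without SPTLC123 replicate 1 that difference was 1.06 (adjusted p = 0.0512), and without the 3 arrays with weak 5′ signal 1.09 (adjusted p = 0.126). Without scramble replicate 2 PLPP3 was called lower in SPTLC123 siRNA than in scramble (-0.79, adjusted p = 0.037). PLPP1 was called lower in DEGS1 siRNA than in scramble (-0.45 ± 0.10, adjusted p = 0.0465) and just missed the threshold in SPTLC123 siRNA (-0.41 ± 0.10, adjusted p = 0.0536). The SPTLC123 change passed without DEGS1 replicate 1 (adjusted p = 0.0494) or DEGS1 replicate 3 (adjusted p = 0.0378). The DEGS1 call of PLPP1 ended without any 1 array other than DEGS1 replicate 1 (-0.50 to -0.35, adjusted p from 0.0578 to 0.158), and without the 3 arrays with weak 5′ signal (-0.36, adjusted p = 0.409).

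APOM, the plasma carrier of sphingosine 1-phosphate, was the only call among 6 other receptors, exporters and carriers. Its probe set (205682_x_at) is of the class that can also bind related transcripts. It read 9.61, 9.36 and 9.26 in DEGS1 siRNA, 9.10, 9.32 and 8.82 in SPTLC123 siRNA and 10.35, 10.80 and 10.01 in scramble, so that all arrays of both knockdowns lay below scramble. APOM changed by -0.98 ± 0.20 in DEGS1 against scramble (adjusted p = 0.0369), a call that ended when the 3 arrays with weak 5′ signal were dropped (-0.78, adjusted p = 0.365), and also without SPTLC123 replicate 1 or 2, DEGS1 replicate 2 or 3, or scramble replicate 1 or 2 (-0.99 to -0.77, adjusted p from 0.0521 to 0.151). It changed by -1.31 ± 0.20 in SPTLC123 against scramble (adjusted p = 0.00787). The receptors S1PR1, S1PR3, S1PR4 and S1PR5 and the exporter SPNS2 were not called in any comparison.

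Of 8 measured enzymes that take up the products of the lyase, ACSL5, an acyl-CoA synthetase, was lower in both knockdowns. It read 5.73, 5.32 and 5.17 in DEGS1 siRNA, 5.93, 6.15 and 5.76 in SPTLC123 siRNA and 7.01, 6.83 and 6.74 in scramble. The log2 change of ACSL5 was -1.45 ± 0.16 in DEGS1 (adjusted p = 0.00281) and -0.91 ± 0.16 in SPTLC123 (adjusted p = 0.0135), and the SPTLC123 call was lost without SPTLC123 replicate 1 (-0.90, adjusted p = 0.058) or scramble replicate 1 (-0.83, adjusted p = 0.0553). Without DEGS1 replicate 1 the knockdowns differed in ACSL5 (-0.70, adjusted p = 0.0146), and over all arrays they did not (-0.54 ± 0.16, adjusted p = 0.114).

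Between the knockdowns, the acyl-CoA synthetases ACSL1 (-0.64 ± 0.12, adjusted p = 0.0221) and ACSL4 (-0.81 ± 0.17, adjusted p = 0.0382) were lower in DEGS1 than in SPTLC123 siRNA. PCYT2, which activates phosphoethanolamine for phosphatidylethanolamine synthesis, was higher (0.52 ± 0.11, adjusted p = 0.038). None of these 3 was called against scramble over all arrays. Without the arrays with weak 5′ signal the differences were -0.50 for ACSL1, -0.93 for ACSL4 and 0.27 for PCYT2, none called (adjusted p = 0.388, 0.124 and 0.528). Each of the 3 calls also ended when single arrays were left out, among them SPTLC123 replicates 1 and 2 and DEGS1 replicates 2 and 3 in all 3 genes (-0.66 to -0.60 for ACSL1, -0.90 to -0.84 for ACSL4 and 0.45 to 0.53 for PCYT2). ACSL4 also lost its call without SPTLC123 replicate 3 or scramble replicate 1 (-0.68 and -0.81), and PCYT2 without SPTLC123 replicate 3 or any scramble array (0.53 and 0.52). Without DEGS1 replicate 1, ACSL1 (-0.50, adjusted p = 0.0297) and PCYT2 (0.50, adjusted p = 0.0083) were called against scramble in DEGS1 siRNA. The DEGS1 arrays left in that setting all have weak 5′ signal.

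**Figure D4:**
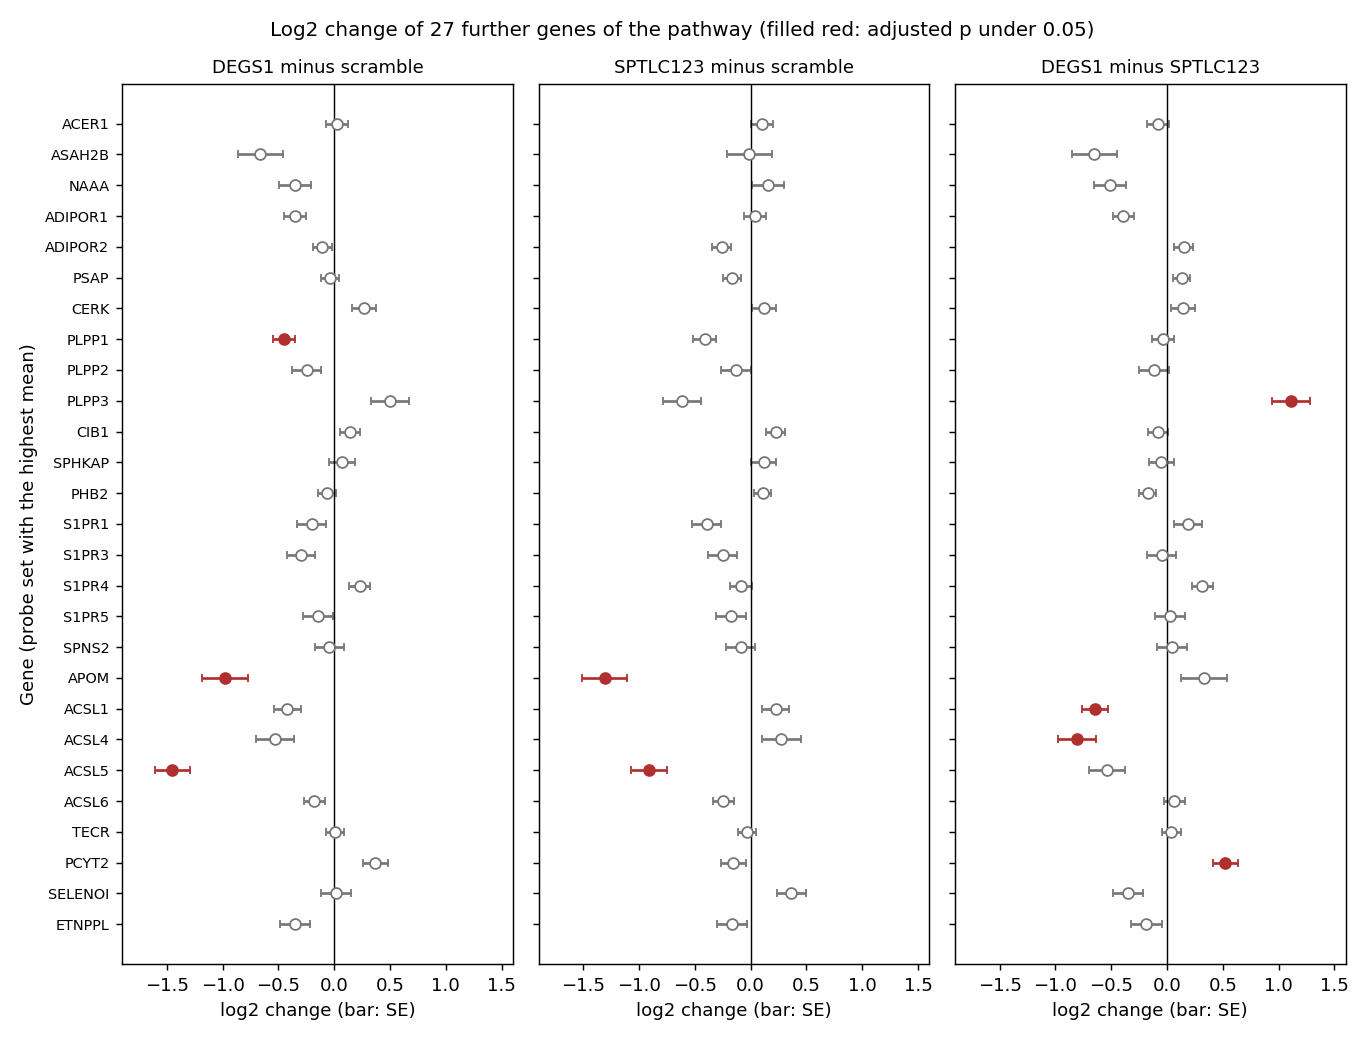
Log2 change (x axis) of 27 further genes of the pathway (y axis, 1 probe set each) in the 3 comparisons, with SE bars and filled red points for an adjusted p under 0.05. ACSL5 (-1.45 and -0.91) and APOM (-0.98 and -1.31) lie below 0 in both knockdowns, and PLPP3 stands out in DEGS1 minus SPTLC123 (1.11).

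SGPP1 223391_at had the smallest F test p of the members, and the genes closest to it over the 9 arrays were MGLL, ORM1, FGL1, ASXL2 and TIMP4. Closeness was the root mean square difference of log2 values centred on scramble, over 23040 probe sets above the median that carry 1 gene symbol. It was 0.10 for MGLL and up to 0.16 for TIMP4. A flat profile would lie 0.80 from SGPP1, close to the median of 0.81 over all probe sets compared, and these 5 were taken as the nearest of them. MGLL, the monoacylglycerol lipase, changed by -1.31 in DEGS1 and -0.63 in SPTLC123 against scramble. ORM1 and FGL1, both secreted plasma proteins of the liver, changed by -1.25 and -1.34 in DEGS1 and by -0.46 and -0.52 in SPTLC123 siRNA. These are the arrays where the mean of the hepatocyte list, though not every marker in it, was lower. All 9 arrays are shared between these profiles, so the likeness describes this set of arrays only.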

How the data were processed

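RNA of 9 Huh7 samples in 3 groups of 3 was measured on 1-colour Affymetrix arrays. The deposited values are normalized intensity per probe set, not yet log2-transformed. The submitters' processing notes name RMA, GCRMA 2.12.1 and limma 2.14.7 without saying what each did. The table held 54675 probe sets, 62 of them controls, from 4.88 to 27330.59. Precision is limited by the 3 arrays per group and, for dim probe sets, by background.

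The deposited values were log2-transformed with no pseudocount. Every one of 54613 probe sets was fitted with 1 mean per group (limma 3.58.1, R 4.3.3, lmFit and eBayes, 6 residual degrees of freedom), with two-sided tests and Benjamini-Hochberg adjustment over all probe sets. Genes came from the platform annotation, which lists 41091 probe sets with 1 symbol, 1801 with several and leaves 11721 unnamed; 41037 matched RefSeq by gene number. The fit was tested on simulated data. Changes of 0.5 log2 were recovered in 26% of cases in DEGS1 against scramble, 10% in SPTLC123 against scramble and 22% between the knockdowns. For changes of 1 log2 the shares were 70%, 60% and 66%. A probe set that was not called can thus hold a change of such size. Replicates are biological per the titles; whether they came from separate cultures is not stated further, so p-values measure the spread between these samples.

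Named were all member genes with every probe set called in any comparison (otherwise the brightest), the siRNA targets, up to 4 called genes per comparison of the pathway list, and the 5 genes most like the leading member. The members and lists were chosen with earlier results of these data known. The alternatives were 21 other settings, listed with their effect in the closing section.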

Additional observations from a re-analysis of the deposited data

How the results depend on the processing

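The 11 changes of member probe sets past the threshold kept their sign in all 19 settings that keep probe sets apart, and 4 were called in all of them: SGPL1 212322_at in SPTLC123 against scramble, SGPP1 223391_at in DEGS1 against scramble, and both bright SGPL1 probe sets in DEGS1 against SPTLC123. Counts of member probe sets called, and of all probe sets called, moved as follows. In DEGS1 against scramble the 3 members became 8 with array weights (10150 of all, against 1869), 1 when the probe sets of a gene were averaged (counted in genes) and 1 without the 3 arrays with weak 5′ signal (193 of all). A threshold of 0.01 gave 450 of all, and a fit on only the 2 groups 859. In SPTLC123 against scramble the 3 members became 1 at a threshold of 0.01 (907 of all, against 2466), 1 when the probe sets of a gene were averaged (1493 genes) and 5 with the actin 3′/5′ covariate (4591 of all). In DEGS1 against SPTLC123 the 5 members became 3 at 0.01 (600 of all, against 2017), 3 with 1 probe set per gene, 3 when probe sets were averaged, 3 on only the 2 groups (993 of all), 8 with array weights (9884 of all) and 2 without the 3 arrays with weak 5′ signal (341 of all). The covariate gave 3509 of all there. The F test called 4 members, and 11 with array weights. Leaving out 1 array at a time gave 2 to 6 members (491 to 9061 of all) in DEGS1 against scramble, 1 to 4 (1166 to 3100 of all) in SPTLC123 against scramble, 3 to 6 (722 to 7151 of all) in DEGS1 against SPTLC123 and 4 to 9 in the F test. The highest counts came without DEGS1 replicate 1, which leaves only DEGS1 arrays with weak 5′ signal. A stricter threshold lowers a count by construction; the cause of the other moves was not tested. Leaving out dim probe sets, robust eBayes with a variance trend, median centring and quantile normalization kept every count within 1.5 times, with 2 to 3 members called in DEGS1 against scramble, 3 to 4 in SPTLC123 against scramble and 5 in DEGS1 against SPTLC123. The S1PR2 call ended with median centring (adjusted p = 0.0637) and with robust eBayes (adjusted p = 0.0808).

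The replicate number was also fitted as a block. Of 9 same-numbered pairs of arrays 3 had deviations that correlated above 0.1 (-0.62 to 0.79), and 4 of 9 arrays correlated best with one of their own number, so the numbers were not taken to pair the samples. The replicate block gave 2 members called in DEGS1 against scramble (1512 of all), 4 in SPTLC123 against scramble (2194 of all), 6 in DEGS1 against SPTLC123 (1672 of all) and 6 in the F test.

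Changes in dim probe sets (SGPP2, ACER2, and the second S1PR2 probe set) are limited by signal over background, where a fold change is compressed.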
